A study of Mus musculus with 12 samples.

Results

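TRAV1, TRAV2 and TRAV5-1 are 3 V segments of the mouse T cell receptor alpha locus (Tcra) at the end of the Trav array farthest from the Traj segments. Their rows, with all 43 Traj partners, were taken from every repertoire table that lists them, out of 85 Trav segments listed in at least 1 of the 12 tables. TRAV1 is listed in 12 tables, TRAV2 in 11 and TRAV5-1 in 8, and a row that a table does not list was treated as missing, not as 0. The libraries hold rearranged Tcra transcripts of preselection CD4 and CD8 double-positive (DP) thymocytes, sorted as CD3e-negative cells from mice aged 4 to 6 weeks. The comparison was of homozygous DPASE knockouts (KO), where DPASE is an abbreviation that the labels do not spell out, with homozygous wild types (WT).

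The 6 groups, each of 2 libraries, were KO and WT cells at steady state, KO and WT cells 24 h after 1 mg of tamoxifen, and KO and WT cells 48 h after it. After tamoxifen, injected intraperitoneally, the ZsGreen-positive DP cells were taken. All groups shared a C57BL/6J background with TcrdCreER, a tamoxifen-dependent Cre at the Tcrd locus, on Tcra-Tcrd loci of strain 129, and a ZsGreen reporter at Rosa26. The labels give that reporter as Rosa26ZsG/+ under genotype and as Rosa26ZsG/ZsG under strain. The labels name groups of 2 mice and do not tie each library to its own mouse, so p-values measure the spread between libraries only, and part of it may be technical.

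Rearrangement of Tcra in DP thymocytes joins 1 Trav segment to 1 Traj segment and removes the DNA between them. Later rounds on the same allele can replace the first join with one that uses a more distal Trav and a more 3' Traj segment, until the cell is selected or dies. Segments at the distal end of the Trav array are therefore known as products of late rounds. TRAV1 joined to TRAJ33 encodes the invariant alpha chain of mouse mucosal-associated invariant T (MAIT) cells, and TRAV11 joined to TRAJ18 that of invariant natural killer T cells.

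In the GENCODE M21 annotation of GRCm38, all of these segments lie on the plus strand of chromosome 14 as V genes, not pseudogenes. TRAV1 is the first of 128 annotated Trav genes, at chr14:52427928-52428876, and ends 1.73 Mb before TRAJ58, the most 5' Traj segment in the tables. TRAV2 is the second, at chr14:52567198-52568051, and 138 kb separate it from TRAV1. TRAV5-1 is the fifth, at chr14:52622566-52623082, 54.5 kb beyond TRAV2. The whole Traj array in the tables, from TRAJ58 to TRAJ2, spans 60.6 kb, less than the gap between TRAV1 and TRAV2. These positions are those of the C57BL/6J reference and may differ in the strain 129 haplotype that the labels give for the locus.

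The last 60 bases of each V segment include the 3' end that is joined to Traj. They are shown 5' to 3' from the GENCODE M21 transcripts, at chr14:52428817-52428876, chr14:52567992-52568051 and chr14:52623023-52623082 of GRCm38, plus strand, with the last in-frame cysteine codon in capitals.
TRAV1: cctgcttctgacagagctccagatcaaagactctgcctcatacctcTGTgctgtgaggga
TRAV2: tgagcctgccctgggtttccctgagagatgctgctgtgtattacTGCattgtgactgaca
TRAV5-1: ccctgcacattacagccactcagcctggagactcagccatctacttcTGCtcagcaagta
Compared position by position from the 3' end, TRAV1 and TRAV2 shared 20 of 60 bases, TRAV2 and TRAV5-1 shared 16, and TRAV1 and TRAV5-1 shared 12. The cysteine codons do not line up in this comparison, so these counts do not measure how alike the segments are. After the cysteine codon, 11, 13 and 10 germline bases remain in TRAV1, TRAV2 and TRAV5-1. The cysteine is the conserved residue that opens the third complementarity-determining region, and these bases encode its V-derived part before trimming.

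The Traj segments shown here are the MAIT partner TRAJ33 (chr14:54185358-54185414) and TRAJ31 and TRAJ32 (chr14:54187895-54187951 and chr14:54186101-54186166), the most used partners by mean share over libraries. Capitals mark the codons of the conserved motif, phenylalanine or tryptophan, glycine, any residue, glycine, that closes the region.
TRAJ33: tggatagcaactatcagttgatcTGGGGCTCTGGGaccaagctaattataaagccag
TRAJ32: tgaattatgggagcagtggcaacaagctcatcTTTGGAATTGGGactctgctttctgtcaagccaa
TRAJ31: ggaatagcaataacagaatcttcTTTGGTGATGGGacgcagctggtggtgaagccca
TRAJ33 carries tryptophan at the first position of the motif, whereas TRAJ31 and TRAJ32 carry phenylalanine.

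The deposited values are fractions of the repertoire per Trav-Traj pair, and the depth in reads is unknown. A table's fractions added up to 0.995 to 0.998 in 8 libraries. They added up to 1.97 to 1.99 in the KO and WT libraries of replicate 2 at 24 h and 48 h, the 4 others, where 43.5% to 56.7% of pairs stood at 0. Every share below is a percent of its own table's total. In those 4 coarser libraries a rare segment rests on few pairs, and segments with DV in their name, which the Tcrd locus also uses, took 23.6% to 33.2% of the total, against 11.03% to 16.4% in the 8 finer libraries. The part of these differences between tables in the results was not tested, and values from the 8 finer libraries stand beside the results that they change. Without the coarser libraries 24 h and 48 h hold 1 library of each genotype, and limma takes the spread from the steady-state libraries, so each lone library is assumed to vary like those. The median replicate difference in log2 Trav share was 0.122 in KO and 0.160 in WT cells at steady state. It was 1.04 and 0.979 at 24 h and 1.04 and 0.938 at 48 h, where replicate 2 is the coarser library. Calls in the 8 finer libraries that use 24 h or 48 h may thus rest on far too small a spread.

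At steady state the distal segments took smaller shares in KO than in WT libraries. In bulk RNA, fewer cells with a join and less transcript per cell cannot be told apart. TRAV1 took 0.853% and 1.21% of the repertoire in KO libraries, against 1.76% and 2.17% in WT libraries. TRAV2 took 0.761% and 0.943% in KO libraries, against 1.30% and 1.49% in WT libraries. Both KO libraries were below both WT libraries for each of these segments. TRAV5-1, listed in replicate 2 alone, took 1.51% in the KO library and 2.10% in the WT library. By share, TRAV1 stood at rank 36 of 83 listed segments in KO replicate 2 and at rank 11 in WT replicate 2.

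On the log2(percent + 0.01) scale, the KO minus WT difference at steady state was -0.94 for TRAV1 (SE 0.21, limma adjusted p = 0.118) and -0.71 for TRAV2 (SE 0.15, limma adjusted p = 0.118). These were the lowest and the second lowest differences among the 81 segments tested. No segment of the 81 passed an adjusted p of 0.05 (0% called), while 29 had an unadjusted p under 0.05. With the replicate number as a block, limma called both lower, TRAV1 at an adjusted p of 0.00934 and TRAV2 at 0.0110, among 26 lower calls (32.1% of segments). Without KO replicate 2 limma also called both, TRAV1 at -1.19 (adjusted p = 0.000420) and TRAV2 at -0.86 (adjusted p = 0.0267), the 2 segments called of 81 (2.47%). Without 1 of the 3 other libraries it called neither, and the TRAV1 difference stayed between -1.09 and -0.69. The ratio of KO to WT shares was 0.486 in replicate 1 and 0.555 in replicate 2 for TRAV1, and 0.585 and 0.635 for TRAV2.

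Of the other segments in the distal zone of the array, up to TRAV12D-3, 25 are listed in every table, and their differences at steady state were below 0 in 25 of 25 cases, with a median of -0.34. TRAV4D-2, in the same zone and not listed in every table, had -0.22. None of the 25 was called, and 20 were called lower with the replicate block. Over all 81 segments the median difference was -0.07. TRAV1 and TRAV2 stood below every one of these neighbours, though no test set them against the neighbours themselves.

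**Figure D1:**
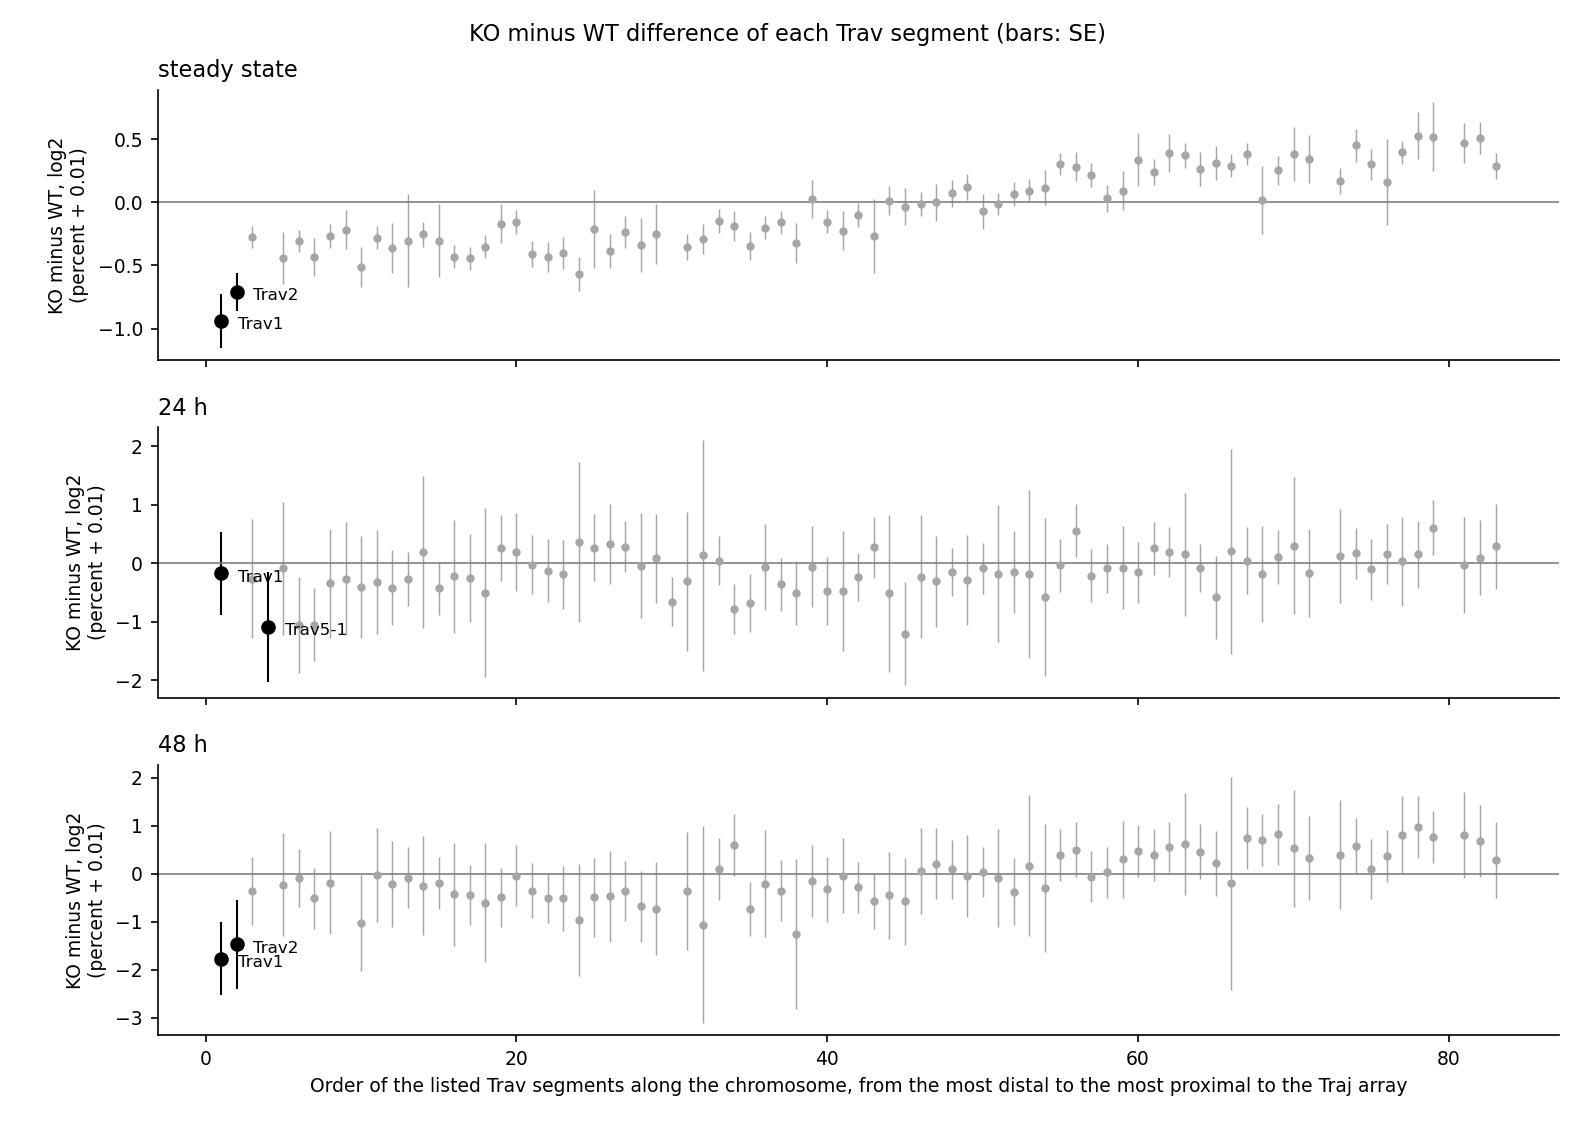
KO minus WT difference of each listed Trav segment (y axis, log2(percent + 0.01), bars are SE) against its order along the chromosome (x axis, from the most distal to the most Traj-proximal), at steady state, 24 h and 48 h. TRAV1 and TRAV2 are the lowest points at steady state (-0.94 and -0.71) and at 48 h (-1.77 and -1.47), and at 24 h TRAV1 lies near 0.

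At 24 h after tamoxifen all 3 segments were rare in both genotypes. TRAV1 took 0.0451% and 0.0293% in KO libraries, against 0.0794% and 0.0207% in WT libraries, so the genotypes overlapped. TRAV2 took 0.0467% in KO replicate 1, the only KO table that lists it then, against 0.0862% and 0.0125% in WT libraries. TRAV5-1 took 0.171% and 0.0408% in KO libraries, against 0.332% and 0.111% in WT libraries. TRAV5-1 was the most used of the listed members in each of the 4 libraries, with TRAV2 unlisted in KO replicate 2, although it too overlapped between genotypes.

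The KO minus WT difference at 24 h was -0.17 for TRAV1 (SE 0.71, limma adjusted p = 0.972), and leaving out single libraries moved it between -0.94 and 0.60. For TRAV5-1 it was -1.09 (SE 0.94, limma adjusted p = 0.972). No segment of the 82 tested was called (0%), and none had an unadjusted p under 0.05. The replicate block gave TRAV5-1 an adjusted p of 0.00195 as 1 of 4 lower calls (4.88% of segments), with a KO to WT ratio of 0.515 in replicate 1 and 0.367 in replicate 2. For TRAV1 those ratios were 0.569 and 1.42, on opposite sides of 1. The second rests on 3 pairs above 0 in each of the coarser libraries.

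At 48 h the segments took larger shares than at 24 h, and in each replicate KO cells held less of them than WT cells. TRAV1 took 0.332% and 0.162% in KO libraries, against 1.30% and 0.510% in WT libraries. TRAV2 took 0.441% and 0.133% in KO libraries, against 1.23% and 0.387% in WT libraries. For TRAV1 both KO libraries were below both WT libraries, while for TRAV2 the higher KO library exceeded the lower WT library. TRAV5-1, listed in replicate 2, took 0.236% in the KO library and 0.708% in the WT library.

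The difference at 48 h was -1.77 for TRAV1 (SE 0.76) and -1.47 for TRAV2 (SE 0.93), at a limma adjusted p of 0.9851 for each, the 2 lowest of 80 segments. Of these 80, 0 were called (0%), and 0 had an unadjusted p under 0.05. With the replicate block TRAV1 and TRAV2 were the 2 segments called (2.5%), both lower at an adjusted p of 0.0194. The KO to WT ratio was 0.255 and 0.317 for TRAV1 and 0.358 and 0.342 for TRAV2 in replicates 1 and 2. The 25 other distal segments listed in every table had differences below 0 in 25 of 25 cases, with a median of -0.42 and no call with or without the block.

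**Figure D2:**
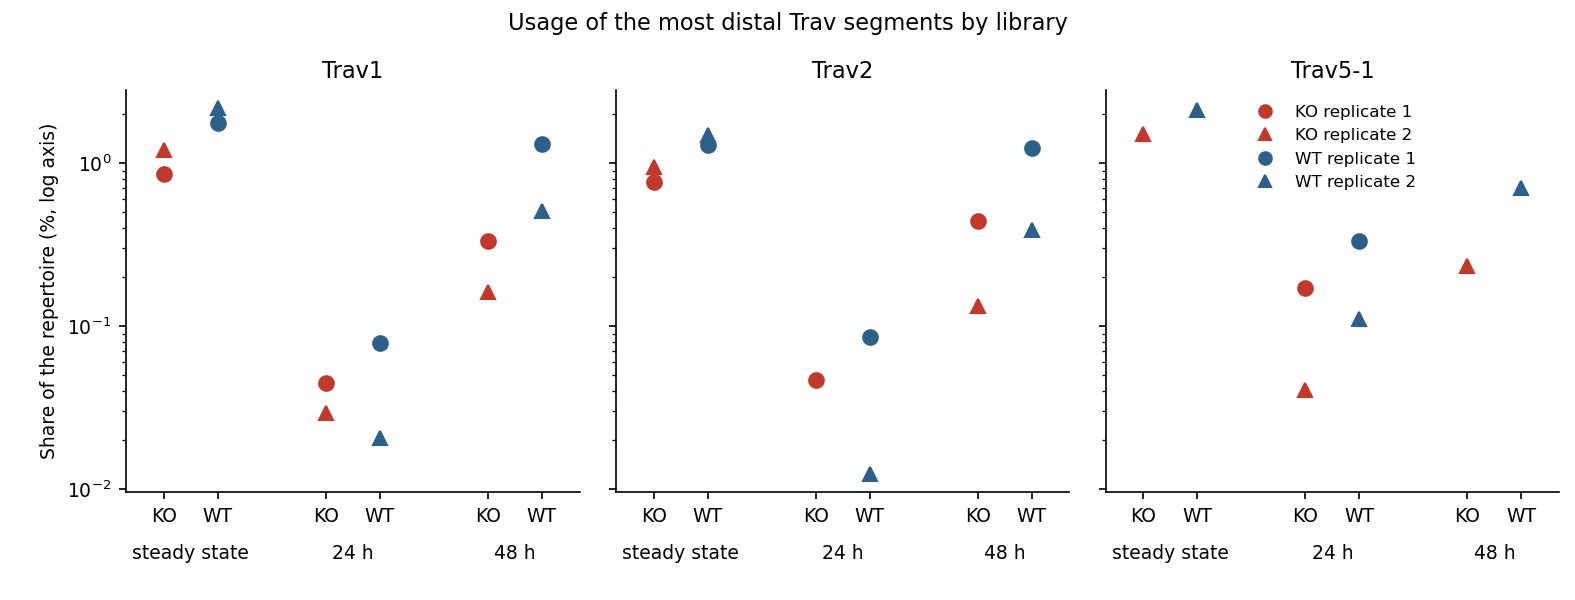
Share of the repertoire (y axis, percent, log axis) of TRAV1, TRAV2 and TRAV5-1 in each library, KO left of WT at each sampling; each point is 1 library and a missing point is a table that does not list the segment. TRAV1 in KO libraries sits below WT libraries at steady state (0.853% and 1.21% against 1.76% and 2.17%) and at 48 h (0.332% and 0.162% against 1.30% and 0.510%).

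Over the 3 samplings together, which could be fitted for TRAV1 alone because the others are unlisted in some tables, the mean KO minus WT difference was -0.96 (SE 0.37, limma adjusted p = 0.671). It was the lowest of 79 segments, of which 0 were called (0%) and 5 had an unadjusted p under 0.05. With the replicate block the adjusted p was 0.0135, and 34 segments (43%) were called. In the 8 finer libraries the difference was -1.19 for TRAV1 and -0.98 for TRAV2, both called at an adjusted p of 0.0247, among 34 of 81 segments called (42%).

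Of the 79 segments tested, TRAV1 had the largest change between 24 h and 48 h in each genotype. The ratio of its share at 48 h to that at 24 h was 7.35 in replicate 1 and 5.53 in replicate 2 of KO cells, against 16.4 and 24.7 in WT cells. On the log2 scale the 48 h minus 24 h difference in KO cells was 2.38 (SE 0.64, limma adjusted p = 0.114), with 1 other segment of 79 called (1.27%), and TRAV1 was called with the replicate block at an adjusted p of 0.00140, as were 45.6% of the 79. In the 8 finer libraries it was also called in KO cells, at 2.63 (adjusted p = 0.00585), among 32 of 81 segments (39.5%). In WT cells it was 3.98 (SE 0.64, limma adjusted p = 0.0189), and TRAV1 was the 1 segment of 79 called (1.27%). The SE comes from 1 spread shared by all 12 libraries. The steady-state libraries varied less than those at 24 h and 48 h, so this SE may be too small for the change. The medians over all 79 segments were 0.28 in KO and 0.27 in WT cells. In another setting each library was centred on its mean log2 share over the segments listed in every table. The TRAV1 difference was then 2.06 in KO and 3.72 in WT cells. Both were called in that setting, among 6 of 79 segments (7.59%) in each genotype.

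The change in TRAV1 share differed between genotypes by -1.60 (SE 0.91, limma adjusted p = 0.995; 0% of 79 called), the lowest of the 79, which did not pass the test. The WT call for TRAV1 was lost without replicate 2 at 24 h (3.21, adjusted p = 0.146), without replicate 1 at 48 h (3.31, adjusted p = 0.114) and without either steady-state library of WT (3.98, adjusted p = 0.0519), which enter this fit through the shared spread. For TRAV2, the ratio of 48 h to 24 h was 9.44 in KO replicate 1, against 14.3 and 31.1 in WT replicates 1 and 2. For TRAV5-1 in replicate 2 it was 5.77 in KO and 6.36 in WT cells.

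The TRAV1 mean at steady state was 1.03% ± 0.249 in KO cells and 1.96% ± 0.293 in WT cells (SD, n = 2 each). After tamoxifen it was 0.0372% ± 0.0112 in KO cells and 0.05002% ± 0.0415 in WT cells at 24 h, and 0.247% ± 0.120 in KO cells and 0.906% ± 0.560 in WT cells at 48 h (SD, n = 2 each). From the highest mean down, the order of groups was WT at steady state, KO at steady state, WT at 48 h, KO at 48 h, WT at 24 h and KO at 24 h. KO at steady state and WT at 48 h overlapped, as did both genotypes at 24 h, and the other neighbours in this order did not. TRAV2 followed the same order of group means, with 0.852% ± 0.128 in KO cells and 1.39% ± 0.131 in WT cells at steady state (SD, n = 2 each). The last step of its order is small. At 24 h TRAV2 took 0.0493% ± 0.0521 in WT cells (SD, n = 2) and 0.0467% in the 1 KO library that lists it.

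The shares of TRAV1 and TRAV2 moved closely together over libraries. The Pearson r of their log2 shares was 0.991 over the 11 libraries that list both. The next most alike to TRAV1 were TRAV14D-3/DV8 (r = 0.970) and TRAV6D-7 (r = 0.957), over 12 libraries each. TRAV2 was also like TRAV5-1 (r = 0.981 over 7 libraries) and TRAV4D-4 (r = 0.969 over 11), and TRAV5-1 was most like TRAV2, then TRAV6D-7 and TRAV4D-4 (r = 0.978 each, over 8). The median r with the other segments was 0.31 for TRAV1, 0.29 for TRAV2 and 0.25 for TRAV5-1. These values are descriptions: the libraries of a group share genotype and sampling, and shares of 1 table sum to a fixed total.

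The partners of the distal segments lay far into the Traj array. The usage-weighted mean Traj number, in which TRAJ58 is the 5' end and TRAJ2 the 3' end, was lower for TRAV1 than for all other Trav segments together in 12 of 12 libraries, with a mean difference of -10.1 (SD 4.22). The exact two-sided sign-flip permutation test over libraries gave p = 0.000488, the smallest that this test can give with 12 libraries (adjusted p = 0.00195 over 4 tests). For TRAV2 the mean difference was -10.4 (SD 4.75, 11 of 11 libraries below 0, exact p = 0.000977, adjusted p = 0.00195), and for TRAV5-1 -10.3 (SD 5.88, 8 of 8 libraries, exact p = 0.00781, adjusted p = 0.00781). In the 4 finer libraries that list TRAV5-1 its difference was -8.86, and 4 libraries cannot reach p under 0.05 in this test.

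The distance from the other segments was widest at 24 h. TRAV1 partners averaged 28.8 and 27.98 in KO libraries, against 29.8 and 30.8 in WT libraries at 24 h, while the other Trav segments averaged 45.6 and 47.1 in KO libraries and 41.7 and 43.0 in WT libraries. The first 13 Traj segments, TRAJ58 to TRAJ42, took 10.9% of TRAV1 joins in KO replicate 1 and 16.1% in WT replicate 1 at that time. They took 72.4% of the joins of all other Trav segments in that KO library and 57.5% in that WT library. At steady state these shares of TRAV1 joins were 6.18% and 5.14% in KO libraries, against 4.00% and 3.95% in WT libraries.

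**Figure D3:**
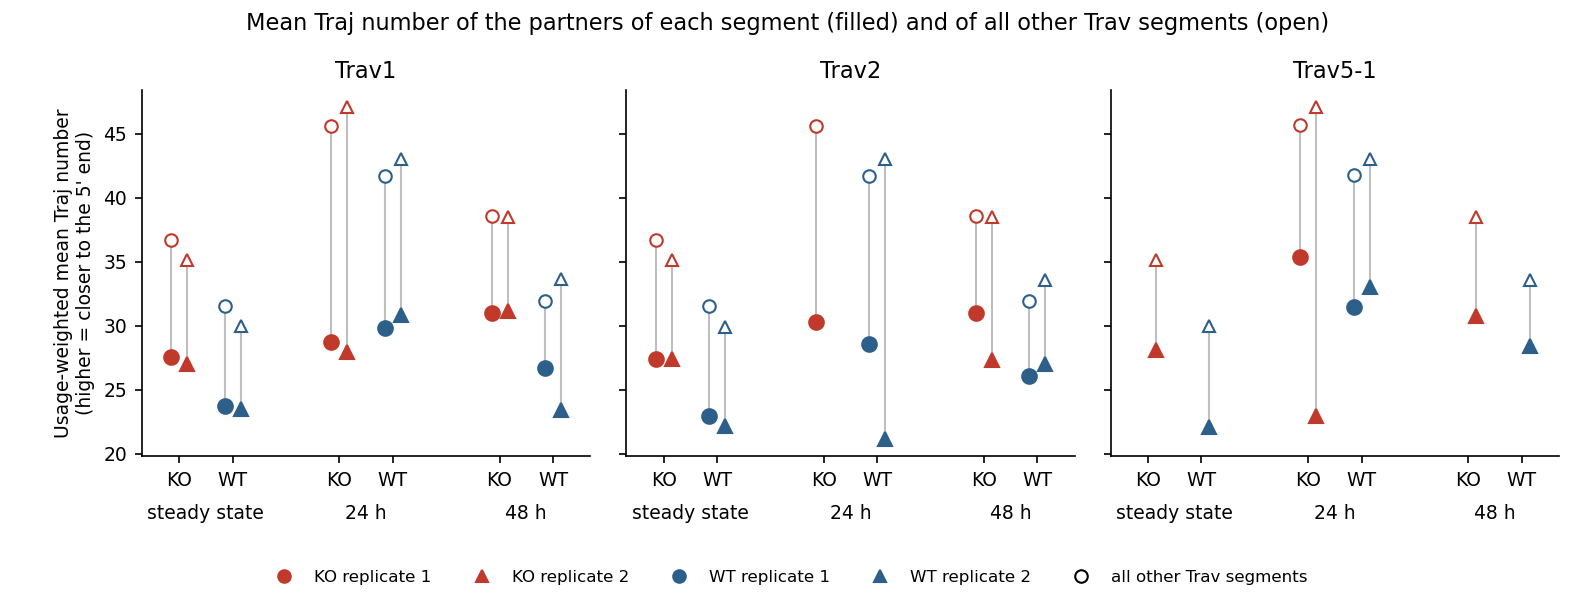
Usage-weighted mean Traj number (y axis, higher is closer to the 5' end) of the partners of TRAV1, TRAV2 and TRAV5-1 (filled) and of all other Trav segments in the same library (open), KO left of WT at each sampling; a grey line joins both values of 1 library. The filled point lies below the open one in every library, with differences of -19.1 to -5.26 for TRAV1.

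Within the distal segments, KO cells used Traj partners nearer the 5' end than WT cells at steady state. Mean Traj number for TRAV1 was 27.5 and 27.0 in KO libraries, against 23.8 and 23.5 in WT libraries. For TRAV2 it was 27.4 in both KO libraries, against 22.995 and 22.2 in WT libraries. The genotypes did not overlap in either segment. TRAV5-1 had 28.1 in the KO library and 22.1 in the WT library of replicate 2.

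The KO minus WT difference was 3.63 for TRAV1 (SE 0.96, limma adjusted p = 0.00238) and 4.83 for TRAV2 (SE 0.97, limma adjusted p = 0.000238). Both were thus higher, among 62 of 81 segments called, all higher (76.5%), so a call was the common case in the array. The median over the 81 was 4.87, and 25 of 25 other distal segments were called higher, with a median of 7.13. TRAV1 and TRAV2 stood at ranks 29 and 39 from the smallest difference. Without KO replicate 1 the call for TRAV1 was lost (3.38, adjusted p = 0.0519).

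The Traj array was also read in 3 windows, TRAJ58 to TRAJ42 (13 segments), TRAJ40 to TRAJ22 (16) and TRAJ21 to TRAJ2 (14). In KO libraries at steady state the last window took 27.7% and 29.1% of TRAV1 joins, against 42.2% and 43.6% in WT libraries. For TRAV2 it took 27.5% and 26.6% in KO libraries, against 44.2% and 47.7% in WT libraries. The middle window held 66.2% and 65.7% of TRAV1 joins in KO libraries, against 53.8% and 52.5% in WT libraries. In each KO library the middle window thus held the larger part of TRAV1 and TRAV2 joins, as for TRAV2 with 65.4% and 67.6% in KO libraries, against 51.6% and 49.4% in WT libraries. TRAV5-1 in replicate 2 had 28.6% in the last window in KO cells and 49.0% in WT cells.

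**Figure D4:**
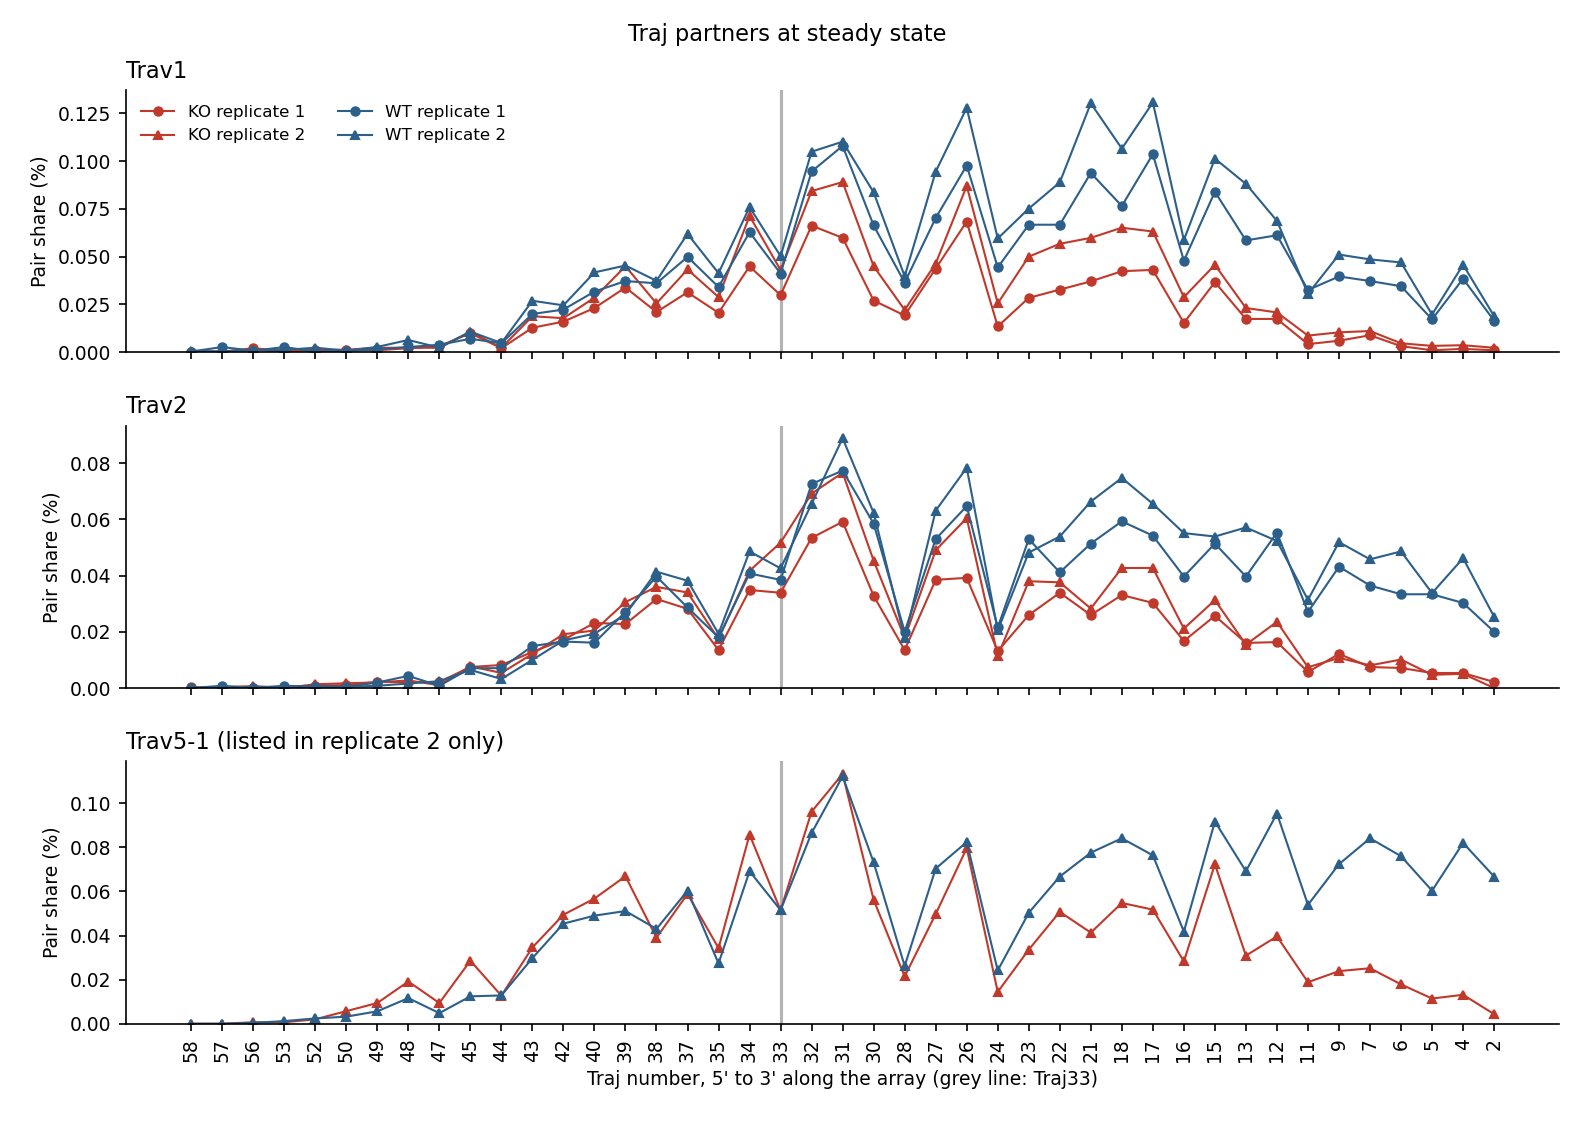
Share of the repertoire of each pair (y axis, percent, linear) for TRAV1, TRAV2 and TRAV5-1 at steady state against the Traj partner in order from 5' to 3' (x axis); each line is 1 library and the grey line marks TRAJ33. At the 5' end the pairs are rare, so the lines lie close on this linear axis whatever their ratio. In the 3' part the lines of KO and WT libraries lie apart. There TRAV1-TRAJ4 has 0.00178% and 0.00370% in KO libraries against 0.0385% and 0.0458% in WT libraries.

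At the level of single pairs, the lowest differences in KO cells were in the 3' part of the array. TRAV1-TRAJ4 took 0.00178% and 0.00370% in KO libraries, against 0.0385% and 0.0458% in WT libraries. TRAV1-TRAJ6 took 0.00321% and 0.00470% in KO libraries, against 0.0346% and 0.0470% in WT libraries. TRAV2-TRAJ5 took 0.00534% and 0.00470% in KO libraries, against 0.0334% and 0.0338% in WT libraries. In these pairs every KO library was below every WT library.

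Of the 43 pairs of each segment, limma called 13 of TRAV1 and 12 of TRAV2 lower in KO cells and none higher. Over all 3483 pairs tested at steady state, 9.7% were called lower and 1.72% higher. The differences of the TRAV1 calls ran from -2.03 for TRAV1-TRAJ4 (SE 0.14, adjusted p = 0.00486) and -1.85 for TRAV1-TRAJ6 (SE 0.16, adjusted p = 0.00625) to -0.65 for TRAV1-TRAJ28. Those of TRAV2 ran from -1.65 for TRAV2-TRAJ4 (SE 0.18, adjusted p = 0.0101) to -0.71 for TRAV2-TRAJ15. Because 0.01 is added to each percent, these differences understate the change of the rarest pairs.

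In the window from TRAJ21 to TRAJ2, 11 of 14 TRAV1 pairs and 12 of 14 TRAV2 pairs were called lower. In the middle window 2 of 16 TRAV1 pairs, with TRAJ27 and TRAJ28, and 0 of 16 TRAV2 pairs were called, and in the window from TRAJ58 to TRAJ42 none of 13 in either segment. The remaining TRAV1 calls were with TRAJ2, TRAJ5, TRAJ7, TRAJ9, TRAJ11, TRAJ12, TRAJ13, TRAJ15 and TRAJ17, between -1.61 and -1.004, and the remaining TRAV2 calls with TRAJ2, TRAJ5, TRAJ6, TRAJ7, TRAJ9, TRAJ11, TRAJ12, TRAJ13, TRAJ16 and TRAJ21, between -1.56 and -0.88. Across the 43 Traj partners, Spearman's rho of the difference with Traj number was 0.94 for TRAV1 and 0.91 for TRAV2, a description over pairs of the same 4 libraries. Window counts and rho were computed for the members alone, so they do not set TRAV1 and TRAV2 apart from other segments. Most pairs with TRAJ58 to TRAJ42 took less than 0.01% at steady state, so the 0.01 added holds their differences near 0. The lack of calls in that window and the rho rest partly on this setting. TRAV2-TRAJ50 took 0.00107% and 0.00168% in KO libraries, against 0.000393% and 0.000402% in WT libraries. TRAV1-TRAJ44 took 0.00214% and 0.00236% in KO libraries, against 0.00471% and 0.00482% in WT libraries. At steady state 62 of all 81 segments were called higher in mean Traj number in KO cells. With the replicate block 26 TRAV1 and 17 TRAV2 pairs were called lower, against 15.5% of all pairs. The block's calls reached further 5', with 14 of 14 TRAV1 and 14 of 14 TRAV2 pairs in the last window, 11 of 16 TRAV1 and 3 of 16 TRAV2 pairs in the middle window, and 1 of 13 TRAV1 and 0 of 13 TRAV2 pairs in the window from TRAJ58 to TRAJ42. All 16 TRAV1 pairs of the middle window had differences below 0, between -1.09 and -0.06. With 1 of the 4 libraries left out, none of these pairs was called, at adjusted p of 0.0586 or higher for the 25 pairs, and every one kept its direction.

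**Figure D5:**
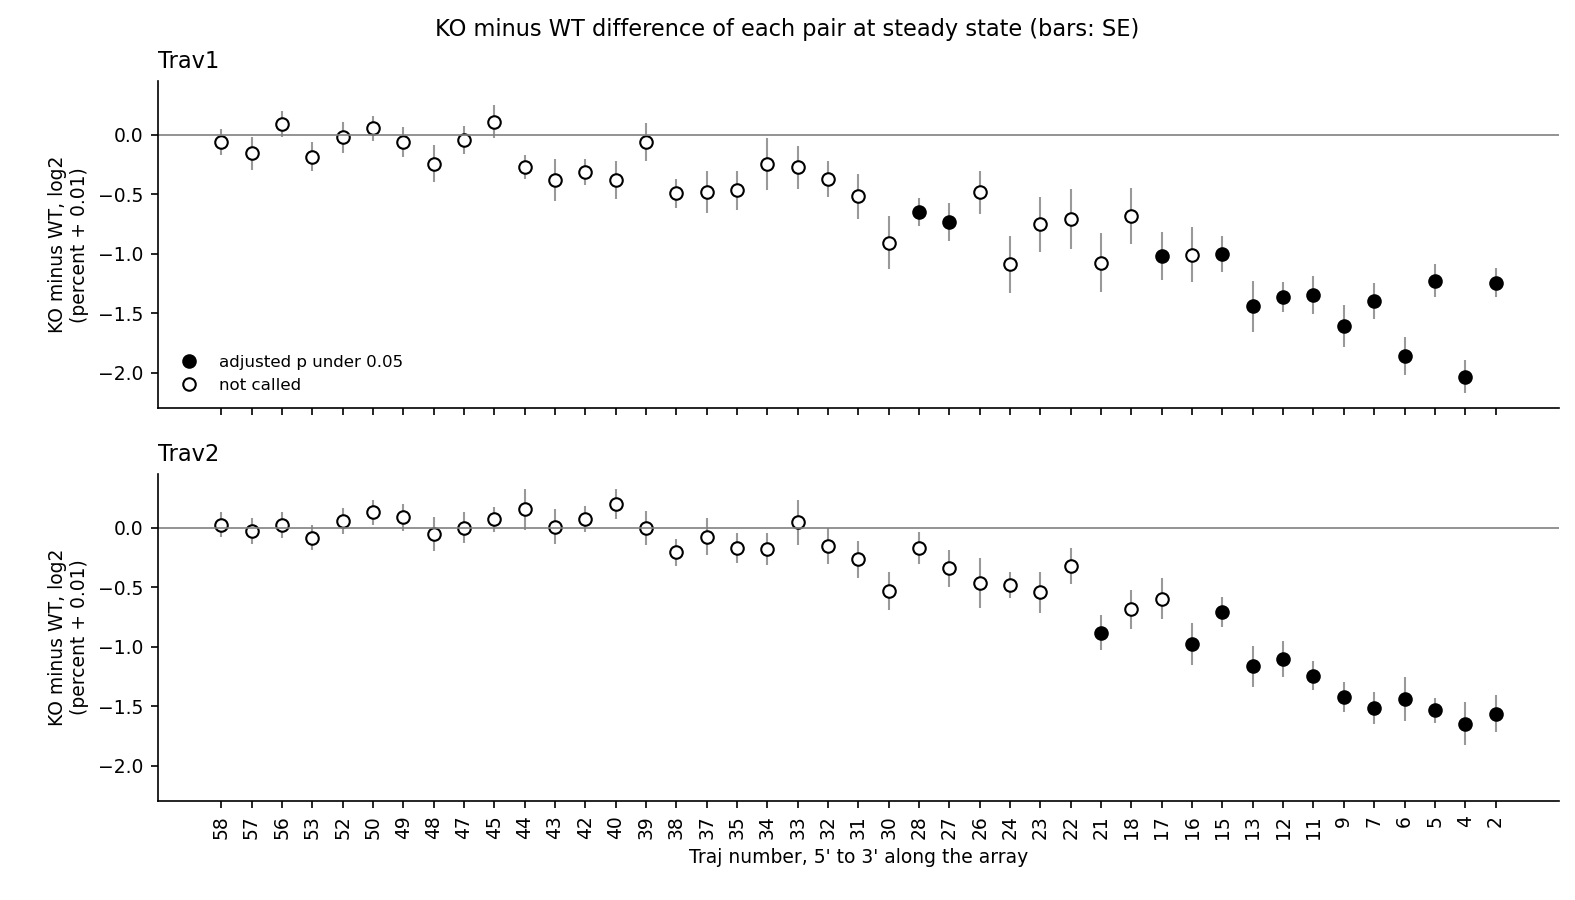
KO minus WT difference at steady state of each TRAV1 and TRAV2 pair (y axis, log2(percent + 0.01), bars are SE) against the Traj partner from 5' to 3' (x axis); filled points have an adjusted p under 0.05. The 13 called TRAV1 pairs and 12 called TRAV2 pairs are all below 0 and lie from TRAJ28 and TRAJ21 onwards, while pairs with TRAJ58 to TRAJ42 lie between -0.38 and 0.16. Most pairs with TRAJ58 to TRAJ42 took less than 0.01%, so the 0.01 added holds them near 0 whatever their ratio.

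At 24 h the mean Traj number of TRAV1 partners gave a difference of -1.96 (SE 1.56, limma adjusted p = 0.268), below 0 where the median over 82 segments was 3.91 and 19 were called higher (23.2%). Each coarser library gives TRAV1 only 3 pairs above 0 at this time. TRAV5-1 had partners averaging 35.3 and 22.9 in KO libraries, against 31.5 and 33.02 in WT libraries. Its difference was -3.13 (SE 3.31, limma adjusted p = 0.393), and it was 3.08 without KO replicate 2, a coarser library in which TRAV5-1 has 4 pairs above 0. TRAV2 had 30.3 in KO replicate 1, against 28.6 and 21.1 in WT libraries, the last from 2 pairs above 0.

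At 48 h TRAV1 partners averaged 31.0 and 31.2 in KO libraries, against 26.7 and 23.4 in WT libraries, without overlap. The difference of 6.02 (SE 1.69, limma adjusted p = 0.0284) was called, as were 42 of 80 segments, all higher (52.5%). It was no longer called without any 1 of the 4 libraries, at adjusted p of 0.0506 to 0.0755. For TRAV2 the values were 31.0 and 27.3 in KO libraries, against 26.1 and 27.0 in WT libraries, and the difference of 2.62 (SE 1.78, limma adjusted p = 0.222) did not pass. In the 8 finer libraries, where 1 KO library is set against 1 WT library at 48 h, it was 4.93 for TRAV2 and 4.30 for TRAV1. The median over 81 segments was 6.74 there. TRAV5-1 had 30.8 in the KO library and 28.4 in the WT library of replicate 2.

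Over the 3 samplings the mean difference of TRAV1 was 2.57 (SE 0.70, limma adjusted p = 0.00586), where 74 of 79 segments were called higher (93.7%) and the median was 4.71. No single pair of the segments was called at 24 h (0% of 3526 pairs; 1 member pair at an unadjusted p under 0.05) or at 48 h (0% of 3440; 12 member pairs). In the 8 finer libraries, with 1 library of each genotype at 48 h, the median difference of the 86 TRAV1 and TRAV2 pairs was -1.01 at 48 h, against -0.02 over 3483 pairs. Over the 3 samplings 4 of 43 TRAV1 pairs were called lower, against 1.09% of 3397 pairs. In the 8 finer libraries the median difference over the 3 samplings was -0.56 for the 86 TRAV1 and TRAV2 pairs, against -0.07 over 3483 pairs. The 4 were TRAV1-TRAJ12 (-1.06, SE 0.14, adjusted p = 0.0195), TRAV1-TRAJ9 (-1.02, SE 0.13, adjusted p = 0.0195), TRAV1-TRAJ24 (-1.005, SE 0.18, adjusted p = 0.0485) and TRAV1-TRAJ11 (-0.80, SE 0.12, adjusted p = 0.0275). With other settings this count was 0 with a pseudocount of 0.001 and 9 with a pseudocount of 0.1, and from 0 (without any of the 8 libraries at steady state or 24 h) to 18 (without WT replicate 2 at 48 h) with single libraries left out.

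From 24 h to 48 h the partners of most segments moved towards the 3' end, and those of TRAV1 did so in WT cells. In KO cells 65 of 79 segments were called lower in mean Traj number (82.3%), with a median difference of -7.96, and TRAV1 had 2.71 (SE 1.21, limma adjusted p = 0.0562), the highest of the 79. In WT cells TRAV1 had -5.27 (SE 1.21, limma adjusted p = 0.00216), called lower as were 72 of 79 segments (91.1%), with a median of -9.22. TRAV1 had in the 8 finer libraries 2.22 in KO cells (adjusted p = 0.127) and -3.13 in WT cells (adjusted p = 0.0403), the second called as were 86.4% of 81 segments. The changes of TRAV1 in KO and WT cells differed by 7.98 (SE 1.71, limma adjusted p = 0.0341), 1 of 2 segments called (2.53%). That call was lost with the replicate block (adjusted p = 0.0698), in the 8 finer libraries (5.35, adjusted p = 0.128) and in 9 of 12 cases of leaving out 1 library (7.98 and adjusted p up to 0.0779 without a steady-state library, 7.46 and adjusted p = 0.168 without WT replicate 2 at 24 h). The call was kept without WT replicate 1 at 24 h and without either WT library at 48 h.

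By mean share over the libraries that list the segment, the most used partner was TRAJ32 for TRAV1 and TRAJ31 for TRAV2 and TRAV5-1. The sequences of both Traj segments are printed above. At steady state TRAJ32 led among TRAV1 partners in no library. TRAJ26 led in KO replicate 1 (0.0684%) and TRAJ31 in KO replicate 2 (0.0890%). In WT libraries TRAJ31 led in replicate 1 (0.108%) and TRAJ17 in replicate 2 (0.131%). TRAV1-TRAJ32 took 0.0663% and 0.0843% in KO libraries, against 0.0946% and 0.105% in WT libraries at steady state. TRAV2-TRAJ31 took 0.0591% and 0.0766% in KO libraries, against 0.0773% and 0.0889% in WT libraries. In both pairs the KO libraries were below the WT libraries, and neither was called. By mean share over libraries, the next most used partners of TRAV1 were TRAJ31, TRAJ26, TRAJ21 and TRAJ17. Those of TRAV2 were TRAJ32, TRAJ26, TRAJ18 and TRAJ30, and those of TRAV5-1 were TRAJ32, TRAJ26, TRAJ15 and TRAJ40.

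The MAIT pair TRAV1-TRAJ33 took 0.0299% and 0.0430% in KO libraries, against 0.0412% and 0.0503% in WT libraries at steady state, with 1 KO library above 1 WT library. At 24 h it was above 0 in 1 table, WT replicate 1, at 0.00427%. At 48 h it took 0.0127% in KO replicate 1 and was listed at 0 in KO replicate 2, against 0.0377% and 0.0189% in WT libraries. The KO minus WT difference was -0.27 at steady state (SE 0.18, limma adjusted p = 0.365), -0.26 at 24 h (SE 0.24, limma adjusted p = 1) and -1.30 at 48 h (SE 0.62, limma adjusted p = 0.968), none called. For comparison, the invariant natural killer T pair TRAV11-TRAJ18 took 0.0378% and 0.0457% in KO libraries, against 0.0350% and 0.0462% in WT libraries at steady state.

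The share of TRAV1-TRAJ33 was set against the product of its segments' own shares in the same library. The ratio was 1.70 and 1.49 in KO libraries, against 1.26 and 1.15 in WT libraries at steady state, and 1.65 in KO replicate 1 against 1.36 and 1.55 in WT libraries at 48 h. The ratio was above 1 in the 8 libraries where the pair was above 0. It was 0 in the 4 others, both KO libraries and WT replicate 2 at 24 h and KO replicate 2 at 48 h. No test over libraries is given, because a log ratio exists only where the pair was seen.

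Other partners of TRAV1 also exceeded the product. At steady state TRAJ33 ranked 14 and 16 among 43 partners by this ratio in KO libraries and 20 and 19 in WT libraries. Its neighbour TRAJ32 had 1.88 and 1.66 in KO libraries, against 1.36 and 1.28 in WT libraries. TRAV2 with TRAJ33 had 2.16 and 2.30 in KO libraries, against 1.59 and 1.42 in WT libraries, above the TRAV1 ratio in each of the 4. TRAV5-1 with TRAJ33 had 1.42 in the KO library and 1.21 in the WT library of replicate 2.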

How the data were processed

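The authors deposited, per the labels' protocols, repertoires made from total RNA by template-switch RACE with a primer in the constant segment Trac. The deposited values are fractions per Trav-Traj pair. The aligner, build and counted unit: not given in the sources used here. Each fraction was divided by its table's total and given as a percent. Members, lists, windows and tests were chosen with earlier results of these data known.

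Differences were fitted with limma 3.58.1 in R 4.3.3 on log2(percent + 0.01), or on mean Traj number, over segments or pairs listed in every table of the fit, with Benjamini-Hochberg adjustment at 0.05. KO minus WT used the 4 libraries of a sampling, and other contrasts all 12 with 1 shared spread. The smaller spread at steady state may make the p-values of changes from 24 h to 48 h too small. The fits were tested on simulated data. Sign-flip tests were exact. Replicate numbers are those of the labels, and whether same-numbered libraries were paired samples is not known. Their deviations correlated with r of 0.723 (steady state), 0.927 (24 h) and 0.931 (48 h). At 24 h and 48 h replicate 2 is the coarser library in both genotypes, so r there cannot tell pairing from table type.

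Named pairs were the 5 most used per segment, all called pairs and TRAV1-TRAJ33; for likeness, the 3 segments of highest r were named. Positions and sequences came from GENCODE M21 (GRCm38), which matched 83 of 85 Trav and 43 of 43 Traj names. Alternatives were other pseudocounts, centring, a variance trend, a share filter, rescaling, 1 fit over 12 libraries, the replicate block and single libraries left out. Keeping unlisted segments as missing and using the 8 finer libraries were added after seeing the data.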

Additional observations from a re-analysis of the deposited data

Results flagged for a closer look

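The change of the mean Traj number of TRAV1 partners between 24 h and 48 h differed between KO and WT cells by 7.98 (SE 1.71, limma adjusted p = 0.0341), with 2.71 in KO and -5.27 in WT cells. As given above, this call was lost with the replicate block, in the 8 finer libraries and in 9 of 12 cases of leaving out 1 library.

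The KO minus WT difference in that mean was -1.96 at 24 h and 3.63 at steady state, with every KO library below every WT library at 24 h and above at steady state, a gap of -5.59. That contrast between samplings was not tested. At 48 h the KO minus WT difference was 6.02, a gap of 7.98 from 24 h. At 24 h TRAV1 had 28 and 3 pairs above 0 in KO libraries, against 29 and 3 in WT libraries.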

How the results depend on the processing

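All values below count segments or pairs among TRAV1, TRAV2 and TRAV5-1 that were called, unless a unit is given. With the replicate block, 2 were called in share at steady state (45 of all 81 segments called), 1 at 24 h (4 of 82) and 2 at 48 h (2 of 80). In share 1 was called over the 3 samplings (34 of 79) and 1 for 48 h minus 24 h in KO cells (36 of 79). Without the block each of these counts of members was 0. The block called 43 pairs at steady state (871 of all 3483 pairs called), against 25 without it. Over the 3 samplings it called 10 pairs (76 of all 3397), against 4 without it. In the difference of changes in mean Traj number it called 0 (0 of 79), against 1 without it. It changed no other call of a member.

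In the 8 finer libraries, with 1 library of each genotype at 24 h and at 48 h, 2 were called in share over the 3 samplings, 2 for 48 h minus 24 h in KO cells and 2 in WT cells, 52 pairs at 48 h (20.8% of all pairs called), 55 pairs over the 3 samplings (37% of all), 2 in mean Traj number at 48 h (82.7% of all segments), 2 over the 3 samplings (96.3% of all) and 0 in the difference of changes, and TRAV5-1 lay -8.86 from the other segments in mean Traj number, with too few libraries to pass. These fits also test TRAV2. Their spread is that of the steady-state libraries, which differed less between replicates than those after tamoxifen, so these counts may be too high. Centring called 1 in share for 48 h minus 24 h in KO cells. A fit over all 12 libraries called 1 pair and 1 mean Traj number at steady state. Keeping unlisted segments as missing called 1 mean Traj number at steady state and 2 over the 3 samplings. Over the 3 samplings the pair count was 0 with a pseudocount of 0.001, 9 with 0.1, 0 when centred, 0 with a variance trend and 0 with a mean share of at least 0.01%. The cause of these changes was not tested.

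With single libraries left out, the counts called ranged from 0 to 2 in share at steady state, from 0 to 1 for 48 h minus 24 h in WT cells, from 0 to 0 for pairs at steady state, from 0 to 18 for pairs over the 3 samplings, from 1 to 2 in mean Traj number at steady state and over the 3 samplings, from 0 to 0 at 48 h, from 0 to 1 for 48 h minus 24 h in KO cells and from 0 to 1 for the difference of changes. A group then has 1 library, which is assumed to vary like the others. At 24 h the KO minus WT difference ranged from -0.94 to 0.60 for TRAV1 share and from -0.51 to 0 for TRAV1-TRAJ33, and from -9.33 to 3.08 for TRAV5-1 in mean Traj number. The depth is unknown, and a share below the smallest in a table cannot be told from 0: at 24 h in the coarser libraries the segments stood at 3.11 to 27.8 times that smallest share.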
